A study of Mus musculus with 4 samples.

Results

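N6-methyladenosine (m6A) sites were described in 8 genes of the inflammasome and of programmed cell death: Nlrp3, Casp1, Casp4, Casp8, Gsdmd, Ripk1, Ripk3 and Mlkl. The sites were those listed under these symbols in the authors' tables of called sites, 65 of 45668 in mouse 1 and 72 of 47747 in mouse 2. The cells were macrophages grown from the bone marrow of 2 mice, both wild type. All had been exposed to LPS (lipopolysaccharide, a component of the bacterial outer membrane) for 3 h, so resting cells were not compared. The term NTC in the names of both tables is not explained by the labels, which give no age, sex or strain. From each animal 1 library of antibody-bound RNA fragments (the IP) and 1 of the starting RNA (the input) were made, and m6A-eCLIP places each called site on 1 nucleotide of 1 strand. All fold values below are the authors' own and divide the read starts of the IP by those of its input. With 1 IP library per mouse and no read numbers, no test was run, and the difference between the 2 mice is the only measure of error.

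NLRP3 is a cytosolic sensor that, once its gene has been induced by LPS and a further signal has arrived, assembles with the adaptor ASC into an inflammasome that activates caspase-1. Caspase-1 cleaves the precursors of interleukin 1 beta and interleukin 18, and opens gasdermin D, which then forms pores in the plasma membrane. Mouse Casp4 encodes caspase-11, which senses LPS in the cytosol and also cleaves gasdermin D. Caspase-8, RIPK1, RIPK3 and MLKL act below death receptors and Toll-like receptors: caspase-8 starts apoptosis and restrains necroptosis, in which RIPK3 phosphorylates MLKL and MLKL disrupts the membrane. m6A is written co-transcriptionally on adenosines of messenger RNA, mostly in the core letters GAC or AAC, and reader proteins of the YTH family couple it to mRNA decay and other fates. Antibodies against m6A also bind m6Am, a related mark on the first nucleotide after the cap. These tables do not tell the marks apart.

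The sequences around the called sites nearest to annotated transcript starts are shown because 5 of the 8 genes had such a site, and because they are the sites whose sequence could be read. RefSeq promoter windows (GRCm38.p6, 250 bases before to 50 after a start) were at hand for 7 of the 8 genes, and 7 called sites of 5 genes lay inside them. The enriched site of each gene is printed 5′ to 3′ on the strand of the gene, with the called nucleotide in capitals and up to 10 bases on either side.
Nlrp3, chr11:59541575-59541595, plus strand: ctttatttgtAcccaaggctg
Casp4, chr9:5308850-5308870, plus strand: ctttcattttActctgtcaag
Casp8, chr1:58802498-58802518, plus strand: agccagtgtcAttctactact
Ripk1, chr13:34002397-34002412, plus strand: agtagtccttAgagga
Ripk3, chr14:55788809-55788829, minus strand: gaagtcgctcAttcaaagtcc
The called nucleotide was an adenosine in each. It lay 16 bases after the first base of a RefSeq transcript in Nlrp3, 6 in Casp8, 44 in Ripk1 and 38 in Ripk3. In Casp4, which has 2 annotated starts in reach, it lay on the first base of the later start and 11 bases after that of the earlier one.

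None of the 7 sites was the A of GAC or AAC on the transcript strand, and 4 of the 7 were preceded by C. Across all genes, 4363 called sites of mouse 1 and 4563 of mouse 2 lay in a promoter window of their own gene, and all of them (100%) fell on an adenosine. The A of GAC or AAC was called in 2.53% and 2.84% of those with a base on both sides. A preceding C was found in 63.1% and 62.4%. Among all adenosines of the first 50 bases after the starts of the 32851 windows, 11.1% stood in GAC or AAC and 30.8% followed a C. Among the called sites in these same first 50 bases, 3515 in mouse 1 and 3645 in mouse 2, a C preceded 64.1% and 63.8%, and 1.59% and 1.84% of those with a base on both sides stood in GAC or AAC. The letters CA and GAC or AAC were read on the transcript strand alone, at the called base, and cannot both hold for 1 site. Sites outside these windows, which include all coding and 3' UTR sites, have no sequence here.

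Called sites were unevenly spread over the 8 genes. Nlrp3 had 24 in mouse 1 and 26 in mouse 2, Ripk1 had 21 and 23, and Casp8 had 9 and 11. Casp1, Casp4 and Mlkl had 3 in each mouse, Ripk3 had 2 and 3, and Gsdmd had none. A site was called enriched at a fold of at least 8, a log2 fold of 3. By that limit 52 of the 65 sites of mouse 1 were enriched, 80.0% against 81.7% of all its called sites. In mouse 2 it was 57 of 72, 79.2% against 79.1%. These shares are near those of the whole tables and set the genes apart in nothing. Of the 61 sites called at the same nucleotide in both mice, 48 were enriched in both, 78.7% against 76.9% over all genes. Hereafter sites enriched in both mice are the shared enriched sites. Without Nlrp3 they were 26 of 38 sites called in both mice (68.4%). All 7 genes with a called site in both mice carried a shared enriched site, against 86.9% of all 7827 such genes.

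**Figure D1:**
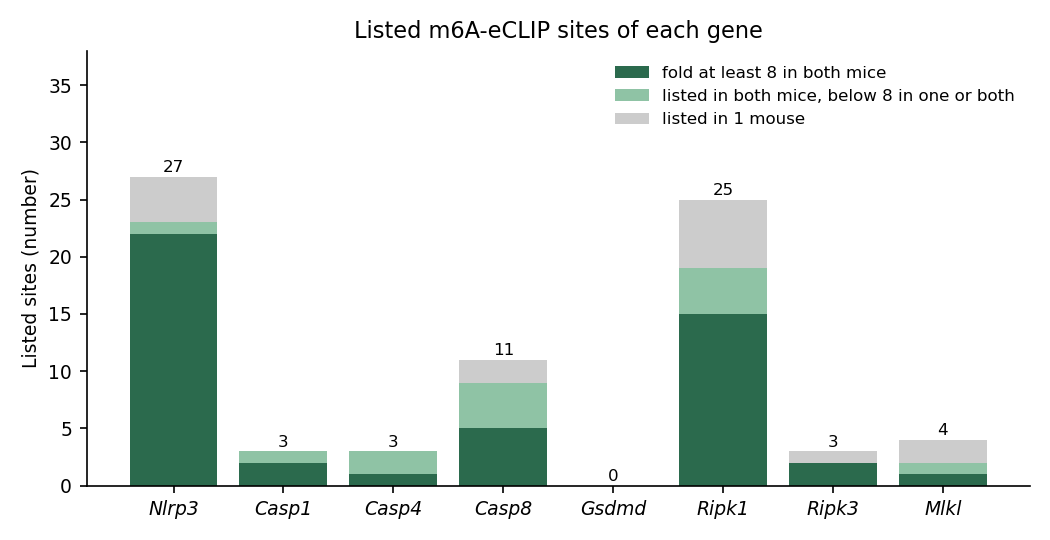
Number of listed sites of each of the 8 genes, counted over both mice, with the height of each bar split into sites with a fold of at least 8 in both mice, other sites listed in both, and sites listed in 1 mouse. Nlrp3 and Ripk1 hold 22 and 15 of the 48 shared enriched sites, and Gsdmd has no listed site.

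The sensor gene Nlrp3 (chromosome 11, plus strand, 59541569 to 59566955) carried 22 shared enriched sites, and 21 of them lay in coding sequence. Of the 6798 genes with a shared enriched site, 60 had more than Nlrp3 and 98.9% had fewer, with a median of 3 sites per gene. Its strongest site, at position 59548548, reached folds of 162 and 208 (mouse 1 first, here and in all pairs below). By mean log2 fold of the strongest site, 98.7% of those genes were lower. Coding sites at 59549479 (118 and 126) and 59548311 (85.9 and 135) were next by mean log2 fold, and each was above 80 in both animals. The strongest of many sites tends to be higher than the strongest of few. Ranks by strongest site, here and below, were not adjusted for the number of sites. Ranks of either kind took no account of transcript level or length.

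All but the first of the coding sites were packed together: 20 lay between 59548163 and 59549607, a stretch of 1445 bases. Neighbouring shared enriched sites of the gene were a median of 42 bases apart, and the closest pair, at 59548163 (48.3 and 44.6) and 59548176 (46.3 and 90.3), was 13 bases apart. Over these 20 shared enriched sites the folds ran from 11.8 to 162 in mouse 1 and from 21.8 to 208 in mouse 2. Among these 20 sites the lowest in each animal were 59549230 (11.8 and 35.6) and 59548835 (19.1 and 21.8). Between them, at 59548977 (15.7) and 59549075 (11.2), sites were called in mouse 2 alone.

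Of the 23 Nlrp3 sites called in both mice 22 were enriched in both, but their order differed. Mouse 2 was higher at 16 of the 22 sites, with a median log2 difference (mouse 2 minus mouse 1) of 0.36 and a range from -1.05 to 1.68. The site at 59549535 had folds of 46.6 and 149, while 59549407 had 92.8 and 44.8 and 59548572 had 93.1 and 52.1. The higher animal thus changed from site to site. Of the remaining Nlrp3 sites, the one printed above at 59541585 in the 5' UTR had folds of 36.1 and 42.4. The first coding site, 59543285, had 21.8 and 12.5. A 5' UTR site at 59542846 (3.18 and 6.74) stayed below the limit in both mice, and no 3' UTR site was listed. An intronic site at 59554605 was called in mouse 1 alone at 8.02, just inside the limit, and a coding site at 59543281 in mouse 2 alone at 2.28.

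**Figure D2:**
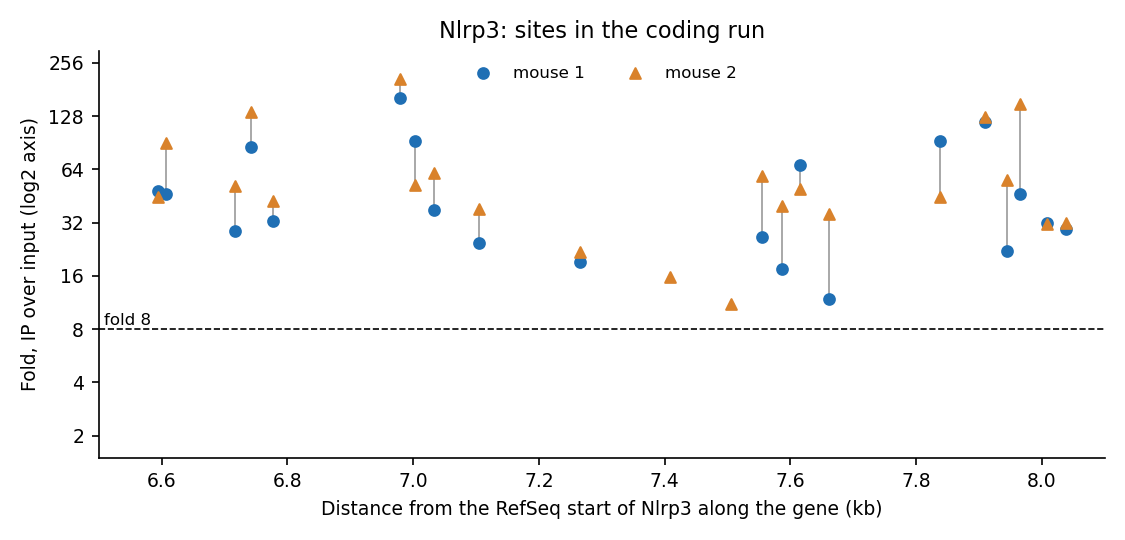
Fold of IP over input (log2 axis) of the listed Nlrp3 sites in the coding stretch against their distance from the RefSeq start of the gene in kb, with circles for mouse 1, triangles for mouse 2 and a line joining the values of 1 site. All points lie above the dashed limit of 8, and the 20 sites called in both mice reach 162 in mouse 1 and 208 in mouse 2.

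By the numbers of shared enriched sites in 5' UTR, coding sequence and 3' UTR, Tlr9 was the gene most like Nlrp3, with the same 1, 21 and 0 (Euclidean distance 0, counted over the 2 mice). Nrros, with 1, 21 and 1, and Tlr3, with 1, 20 and 0, followed at a distance of 1. Tlr9 and Tlr3 encode endosomal receptors of nucleic acids, and Nrros a leucine-rich repeat protein. The strongest site of Tlr9 was lower (31.1 and 44.3) than that of Nlrp3, and those of Nrros (117 and 103) and Tlr3 (63.2 and 99.2) lay in between.

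The inflammatory caspase genes had few sites, all within 759 bases of the start of the gene. Casp1 (chromosome 9, plus strand, 5298517 to 5307281) carried 2 shared enriched sites 6 bases apart in the 5' UTR, at 5298681 (25.6 and 22.6) and 5298687 (31.0 and 42.7), 164 and 170 bases after the RefSeq start. Its other called site lay at a 3' splice site, 5299276, with folds of 1.64 and 2.34. That was close to the median over all 3' splice site sites, 2.40 in mouse 1 and 2.25 in mouse 2. No site was called in the coding sequence or 3' UTR of Casp1 in either mouse.

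Casp4 (chromosome 9, plus strand, 5308849 to 5336791) had 3 called sites within the first 20 bases of the gene, all in both mice and all in the 5' UTR. Only the one at 5308860 was enriched, at 11.2 and 10.3. Its neighbours at 5308855 (5.15 and 5.72) and 5308868 (5.30 and 3.95) were not. The log2 differences of the 3 sites between the mice (mouse 2 minus mouse 1) lay between -0.43 and 0.15. Among genes with a shared enriched site, 4.28% had a lower strongest site than Casp4.

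Gsdmd, the gene of the pore-forming substrate of both caspases (chromosome 15, 75862144 to 75867408), had no listed site in either mouse, under its symbol or under any other name in that span. The tables list only sites with a score above 10 and hold no level for genes without one. The level of Gsdmd mRNA was not tested.

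Casp8, the apoptotic initiator gene (chromosome 1, plus strand, 58795233 to 58847503), carried 5 shared enriched sites, 3 in coding sequence and 2 in the 5' UTR. The coding sites stood within 271 bases of each other at 58844464 (70.2 and 41.6), 58844713 (41.6 and 43.5) and 58844734 (53.2 and 22.8). A further coding site between them, 58844632, was called in mouse 2 alone at 17.3. In mouse 1 these 3 were the highest folds of the gene. In mouse 2 the 5' UTR site printed above, 58802508 (10.03 and 34.7), exceeded the lowest of them.

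A second group of Casp8 sites, in the 5' UTR between 161 and 317 bases after the RefSeq start, was weaker. Of the 6 sites there, only 58795394 (14.04 and 11.6) was enriched in both. Sites 10 bases apart changed places: 58795500 had 12.03 and 3.85, while 58795510 had 5.35 and 22.1. Sites at 58795422 (3.01 and 3.53) and 58795439 (5.01 and 3.13) were below the limit in both mice, and 58795550 was called in mouse 2 alone at 8.18.

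Among the kinase genes of the death complex, Ripk1 (chromosome 13, plus strand, 34002225 to 34035170) carried 15 shared enriched sites. Of these 7 lay in coding sequence, 6 in the 3' UTR, 1 in the 5' UTR and 1 in an exon annotated as noncoding. More sites were found in 209 of the 6798 genes, and fewer in 96.4%. The strongest were coding sites at 34032565 (60.5 and 93.9) and 34032635 (53.2 and 88.1), then the 3' UTR site 34032859 (54.0 and 61.1). They belonged to a run of 10 shared enriched sites over 2254 bases at the end of the gene, which crossed from coding sequence into the 3' UTR. The last sites of the run, 34034590 (26.1 and 16.9) and 34034818 (17.05 and 10.1), were lower in both mice than its strongest sites.

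A separate group of Ripk1 coding sites lay upstream, at 34028090 (53.2 and 24.1), 34028097 (62.7 and 25.5) and 34028122 (37.1 and 74.1), within 33 bases. Mouse 1 was higher at the first and second of these sites and mouse 2 at the third. The 5' UTR site printed above, 34002407, had 40.8 and 18.02. Over the 15 sites mouse 2 was higher at 7, with a median log2 difference of -0.63 and a range from -2.05 to 1.84. The lowest value of that range came from the 3' UTR site 34032913 (73.2 and 17.7), the highest from the coding site 34030113 (8.36 and 29.8).

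Ripk1 also held 3 of the 6 sites of the 8 genes that were enriched in 1 mouse while called in both: 34027888 (4.51 and 12.5), 34028173 (13.4 and 6.74) and 34034778 (12.03 and 5.46). At a 3' splice site, 34032494, it had folds of 2.01 and 3.16, with a score of 17.2 in mouse 1 and 69.4 in mouse 2. The 2 tables annotated 3 Ripk1 sites differently, 34034590, 34034778 and 34034818, as 3' UTR in one and noncoding exon in the other. No other site of the 8 genes that was called in both mice had differing annotations.

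**Figure D3:**
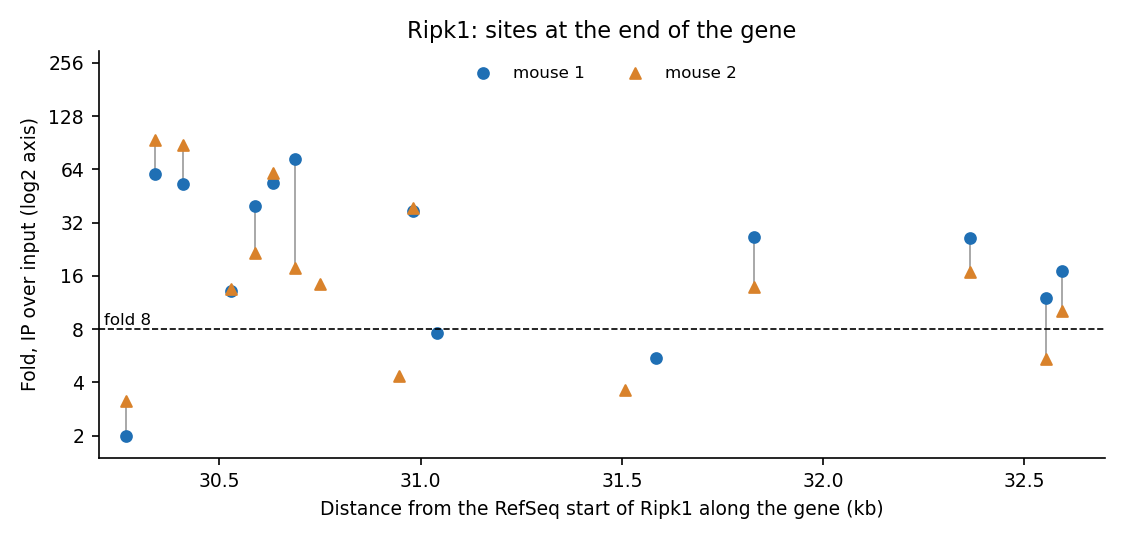
Fold of IP over input (log2 axis) of the listed sites at the end of Ripk1 against their distance from the RefSeq start of the gene in kb, with circles for mouse 1, triangles for mouse 2 and a line joining the values of 1 site. The values reach 93.9 at the first coding site of the run, and the splice-site value of 2.01 in mouse 1 at the left edge is the lowest.

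The necroptosis genes Ripk3 and Mlkl carried few sites. Ripk3 (chromosome 14, minus strand, 55784995 to 55788857) had 2 shared enriched sites, the 5' UTR site printed above, 55788819 (23.3 and 38.9), and a 3' UTR site, 55785068 (15.5 and 32.7). Both were higher in mouse 2. A further site, 55785079 in the 3' UTR, was called in mouse 2 alone at 3.66.

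Mlkl (chromosome 8, minus strand, 111311255 to 111338479), the gene of the executioner of necroptosis, had 1 shared enriched site, 111338119 in the 5' UTR, with folds of 36.6 and 79.0. A 5' UTR site 36 bases upstream, 111338155, was called in mouse 2 alone at 10.6. The coding site 111333738 was below the limit in mouse 1 (5.35) and above it in mouse 2 (15.4), and 111333705 was called in mouse 1 alone at 7.52.

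The 48 shared enriched sites as a whole had a median fold of 36.4 in mouse 1 and 39.4 in mouse 2, against 21.5 and 22.1 over all 29288 such sites. The absolute difference between the mice had a median of 0.75 on the log2 scale, against 0.49 over all. Across the 48 sites Pearson's r between the mice was 0.57 on the log2 scale and Spearman's rho 0.55, against 0.66 and 0.63 over all. Both sets hold only sites with a fold of at least 8 in both mice. Sites that passed the limit or were called in 1 mouse alone are left out. The median differences and correlations therefore do not measure agreement over all called sites. The points share libraries and transcripts, and 37 of the 48 come from Nlrp3 and Ripk1. Of the enriched sites of mouse 1 in these genes, 92.3% were enriched in mouse 2 (78.5% over all). Of those of mouse 2, 84.2% were enriched in mouse 1 (77.6% over all). Without Nlrp3 the shares were 89.7% and 78.8%.

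Sites called in a single mouse had low scores. The 4 of mouse 1 had scores from 10.6 to 31.4 and the 11 of mouse 2 from 11.2 to 33.7. Sites called in both had medians of 61.1 and 67.0, but their lowest scores were 10.5 and 12.1, so the ranges overlap. The definition of the score is not given in the sources used here.

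**Figure D4:**
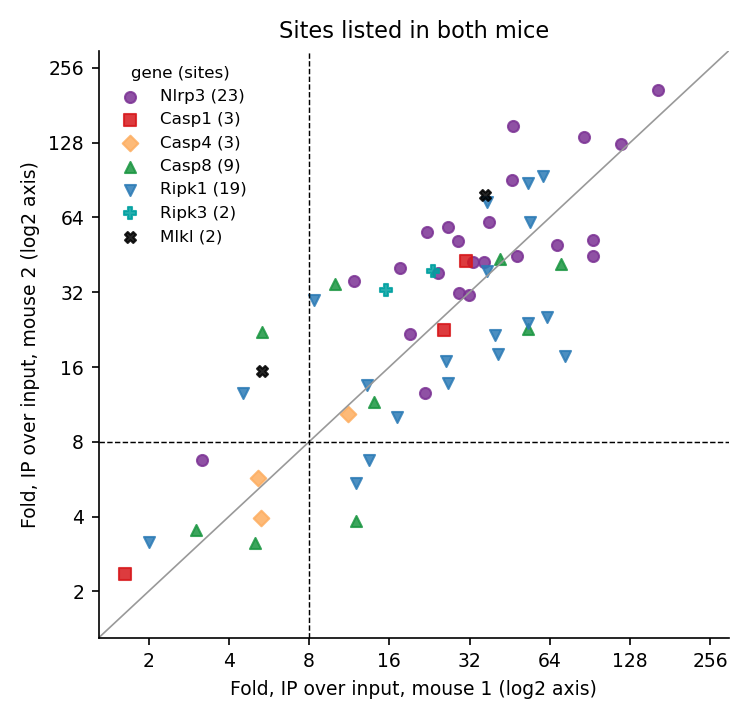
Fold of IP over input of the 61 sites called in both mice, mouse 1 on the horizontal and mouse 2 on the vertical axis (both log2), with a symbol per gene, dashed lines at 8 and the line of equal values. The upper right quadrant holds 48 sites, and 3 sites lie in each of the quadrants above the limit in 1 mouse alone.

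The position of the shared enriched sites differed from gene to gene. Coding sequence held 31 of the 48 (64.6%, against 42.4% over all genes), but without Nlrp3 it held 10 of 26 (38.5%). The 3' UTR held 7 (14.6%, against 37.3%), 6 of them in Ripk1 and 1 in Ripk3, and without Nlrp3 its share was 26.9%. The 5' UTR held 9 (18.8%, against 13.6%), with 1 or 2 in each of the 7 genes, and without Nlrp3 its share was 30.8%. In Casp1, Casp4 and Mlkl all shared enriched sites lay in the 5' UTR, which was also the case in 1024 of the 6798 genes (15.1%). The shared enriched sites of Casp1, Casp4 and Mlkl had folds from 10.3 (Casp4) to 79.0 (Mlkl). The medians over every called 5' UTR site were 10.03 and 10.1. They include sites below the limit, so the 2 sets of values are not alike. The 48 sites were a median of 46 bases from the nearest other shared enriched site (57 over all), and 19 had one within 30 bases (39.6%, against 32.9% over all).

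More of the pathway was described with a list of 68 symbols in 7 role groups. Of these symbols 1, Gsdmdc1, was absent from the RefSeq genes used here and had no called site. A called site was found for 59 of the 68 in at least 1 mouse and for 58 in both. Of the 58 genes, 55 (94.8%, against 86.9% of all genes) carried a shared enriched site. The median strongest site of the 55 had a mean log2 fold of 5.46, against 4.81 over all genes with a shared enriched site. The number of sites per gene was not matched in this comparison. The medians of the separate groups ran from 3.88 to 6.21. Of their 348 shared enriched sites 170 lay in coding sequence, 121 in the 3' UTR, 41 in the 5' UTR and the rest in other positions. Over all genes the shares of these 3 positions were 42.4%, 37.3% and 13.6%.

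Of the sensors and their partners, 10 of 11 genes with called sites in both mice carried a shared enriched site. Over all genes the share was 86.9%, and the counts of groups this small, here and below, do not set them apart from it. The sensor group was led by the DNA sensor gene Aim2 (55.2 and 68.4, 3' UTR). Naip2 (34.6 and 68.4, coding sequence), a receptor gene of bacterial ligands, was next. Naip2 has close paralogues, so its reads may be shared with them. The exception was Nek7, which encodes the kinase that binds NLRP3. It had 1 called site in mouse 1, below the limit, and 2 in mouse 2, both enriched. The group of the adaptor and its relatives had 5 of 5. It was led by Ripk2 (171 and 94.1), the kinase gene below the NOD receptors, and Nod1 (95.3 and 126), both in coding sequence. None of the 43 shared enriched sites of the sensors and their partners lay in the 5' UTR, against 13.6% over all genes. In the group of the adaptor and its relatives it was 6 of 62. Most of those 62 lay in the NOD receptor genes Nod1 (22) and Nod2 (30), so the counts do not compare sensors with adaptors.

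Among products of caspases and pore genes, 4 of 5 genes carried a shared enriched site (86.9% over all genes). Il1b was highest and Ninj1 next (84.0 and 114, 3' UTR). Ninj1 encodes the protein that ruptures the membrane of dying cells, and 8 of its 9 shared enriched sites lay in the 3' UTR. Gsdme, a relative of Gsdmd, was the exception, with 1 called site in mouse 1 and 3 in mouse 2. In each mouse 1 site was enriched, but not the same one. All 8 necroptosis and death receptor genes with called sites in both mice carried one. The highest were the TNF receptor gene Tnfrsf1a (204 and 223, 3' UTR) and the adaptor gene Traf2 (79.2 and 180, coding sequence).

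Of the 12 genes listed under restraint of the death complex, not all of which only restrain it, 11 carried a shared enriched site. The share over all genes was 86.9%. The deubiquitinase genes Otulin and Tnfaip3 were highest by mean log2 fold. Rnf31, which encodes the catalytic subunit of the linear ubiquitin ligase, had 2 called sites per mouse. Of these 1 was enriched in mouse 1 and none in mouse 2.

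In the mitochondrial route of apoptosis, 13 of 13 genes carried a shared enriched site, against 86.9% of all genes with called sites in both mice. Bid, the gene of the protein that caspase-8 cleaves to reach the mitochondria, had the highest (132 and 296), and Bbc3, which encodes the killer protein PUMA, was next (93.3 and 169). Both sites lay in the 3' UTR, and so did 12 of the 13 shared enriched sites of Bid.

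**Figure D5:**
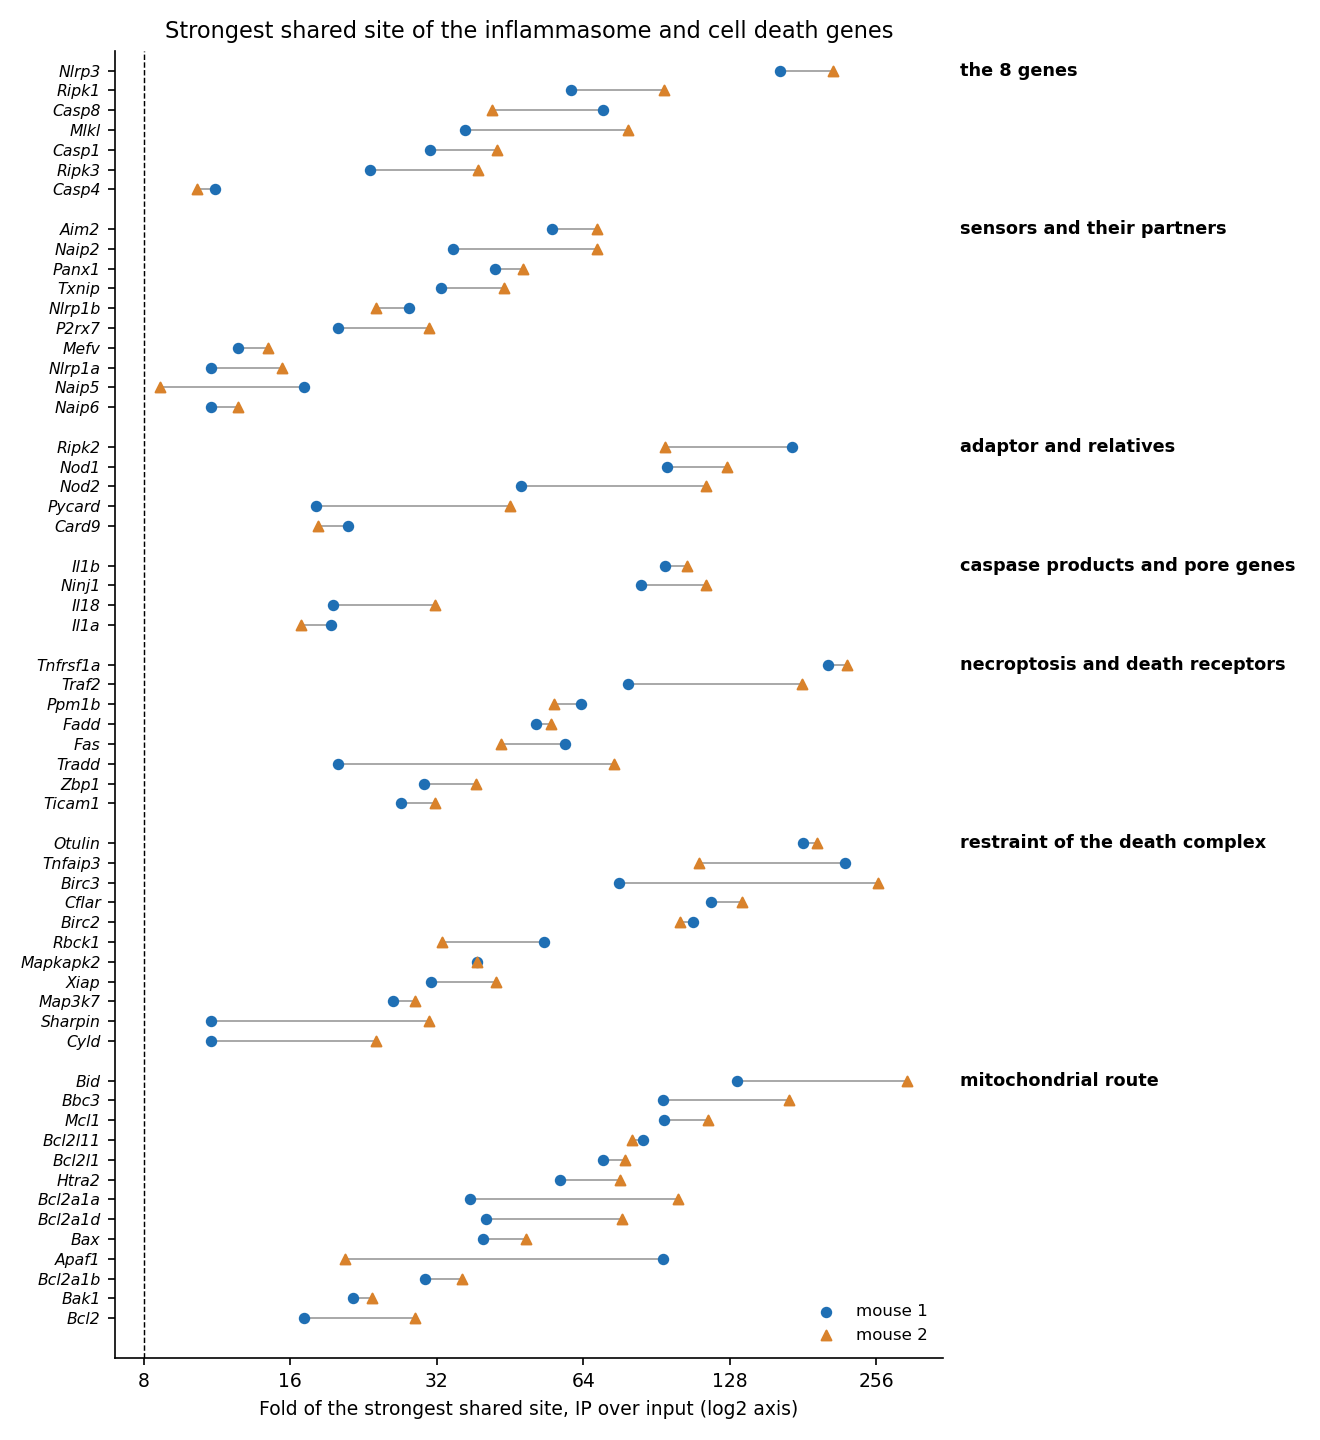
Fold of IP over input (log2 axis) of the strongest shared enriched site of each gene with one, for the 8 genes (7 shown) and 6 of the 7 groups of the pathway list, with circles for mouse 1, triangles for mouse 2 and a line joining the mice. Nlrp3 (162 and 208) stands highest of its group and Casp4 (11.2 and 10.3) lowest, near the limit of 8 marked by the dashed line.

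The labelled cell type was checked against markers. All 10 macrophage markers had called sites and 9 a shared enriched one, Itgam being without. No site was called for 4 of 5 T cell, 3 of 4 B cell, 3 of 5 neutrophil, 5 of 5 stromal and endothelial and 3 of 3 erythroid markers. Markers of other cells with shared enriched sites were Lck, Cd79b, Ngp and Camp. A called site shows that a transcript was read, not how much of it there was, and the part of other cells in the results above was not tested.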

How the data were processed

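RNA of macrophages grown from the bone marrow of 2 wild-type mice was poly(A)-selected, per the labels' protocols, and sequenced as 1 IP and 1 input library per mouse. Per the submitters' processing notes, the tools were UMI-tools 0.5.1, cutadapt 2.7 and STAR 2.6.0c, and the builds mm10 and hg38. Which program called the sites is not given in the sources used here. Per mouse, the authors deposited 1 table of called sites, with a score per site (definition not stated, all above 10) and a fold, the ratio of read starts, IP to input, per the file headers. The end of each interval was taken as the position.

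Sites of the 8 genes were taken by the gene column. A site was enriched at a fold of at least 8 and shared when the nucleotide and strand were the same in both mice. Annotations of mouse 1 were used for shared sites. The deposited tables hold no read numbers, so depth is unknown, count models were not run, and the 2 folds are printed as the only measure of error. No test was run. Genes of the pathway list were named by rule: in each role group the 2 whose strongest shared enriched site was highest by mean log2 fold, and up to 2 with called sites and no shared enriched site. Some genes that this rule picks are not reported here. The 3 genes most like the leading member were found by the distance between their numbers of shared enriched sites in 5' UTR, coding sequence and 3' UTR. The members and lists were chosen with earlier results of these data known. The joining step was tested on simulated data. Gene spans and sequences came from RefSeq (GRCm38.p6, which shares the coordinates of mm10). Alternatives covered the fold limit, the score, the merging and sharing of sites within 5 bases, and each mouse left out. Python 3.11.15, pandas 2.3.3, NumPy 2.4.6, SciPy 1.17.1 and Matplotlib 3.10.9 were used.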

Additional observations from a re-analysis of the deposited data

How the results depend on the processing

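The counts of enriched sites in each mouse, shared enriched sites, genes with one and pathway genes with one were recomputed under the alternatives. All 34 values stayed within 1.5 times of those reported. The numbers of called sites and genes left no room for a rise beyond that, so only a fall could have done so. At a fold of at least 16, 38 sites of 6 genes were shared and enriched, since Casp4 was lost, and 47 pathway genes carried one. At a fold of at least 2 the numbers were 60, 7 and 58, and with scores of at least 20 they were 43, 7 and 49. Setting the limit before the constant of each table gave 48, 7 and 56. Counting the sites of 1 mouse alone gave 52 to 57 sites, 7 genes and 57 to 58 pathway genes. Merging sites within 5 bases, or sharing sites within 5 bases, left 48, 7 and 55. The merging could not lower the 48, since the closest shared enriched sites of a gene were 6 bases apart. No paired analysis was possible because these counts come from no test. Depth limits every fold, since read numbers are unknown.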

Other observations

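Sites without a gene name lay inside the RefSeq span of Mlkl, on its strand. At 111338199 on chromosome 8, an intergenic site by the authors' annotation had folds of 3.23 in mouse 1 and 7.84 in mouse 2, and at 111338197 a site was called in mouse 1 alone with a fold of 25.1. They lie 280 and 282 bases after the RefSeq start of Mlkl and were not counted above because the gene column is empty. In the span of Ripk3, a site on the opposite strand at 55786781 was called in mouse 1 alone with a fold of 8.02.

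After division by the constant of each table (1.003 in mouse 1 and 0.963 in mouse 2), the fold was a whole number within 1e-06 at 21 of the 65 sites of the 8 genes in mouse 1 (32.3%) and at 25 of the 72 in mouse 2 (34.7%). Over all called sites the shares were 62.1% and 62.0%.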
